A study of Rattus norvegicus with 11 samples.

Results

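The NMDA receptor subunits are 7 genes, Grin1, Grin2a, Grin2b, Grin2c, Grin2d, Grin3a and Grin3b, and every non-control probe that carries one of these names was taken, 7 of 35581 names on the array. That gave 9 probes of 41012, because Grin1 and Grin2a have a pair of probes each, and the 9 probes fill 45 spots per array, since 4 of them are printed 10 times. RNA came from the medial prefrontal cortex of male rats, 4 months old, with 1 single-colour Agilent array per rat. In the heroin group (n = 6) rats licked a spout for heroin infusions in 3 h sessions on 14 d, spent 14 d without drug, and were killed directly after a 90 min extinction session in which no heroin was given. The saline group (n = 5) was yoked, so that each infusion a heroin rat earned gave a saline infusion to a drug-naive rat, and it went through the same abstinence and extinction session. A rat of the saline group therefore did not control its infusions, so that heroin itself and the control over an infusion cannot be told apart in this comparison. Rats keep the numbers of their labels, heroin 1 to 6 and saline 2 to 6.

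The NMDA receptor is a glutamate-gated channel that passes calcium only when glutamate, a co-agonist (glycine or D-serine) and depolarisation coincide, and it is known for starting long-term changes of synaptic strength. Each receptor holds obligatory GluN1 subunits, encoded by Grin1, together with GluN2 subunits (Grin2a to Grin2d), which bind glutamate and set the kinetics, or GluN3 subunits (Grin3a, Grin3b), which bind glycine and lower the calcium flux. In the cortex GluN2B is abundant early in life and GluN2A gains on it as synapses mature, so that the balance of the pair is often followed in studies of plasticity and drug exposure.

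The probes are 60 bases long and sit at a single place of each transcript, so their letters show which part of a message was measured. The following 4 are shown because the result on Grin2b turns on its probe, because 1 marks a splice form, or because a single spot carries the whole measurement. All are written 5′ to 3′ in the sense of the transcript.
Grin2b probe: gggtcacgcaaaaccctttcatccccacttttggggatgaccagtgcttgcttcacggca
Grin1 second probe: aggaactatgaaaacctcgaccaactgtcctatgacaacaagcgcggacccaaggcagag
Grin2d probe: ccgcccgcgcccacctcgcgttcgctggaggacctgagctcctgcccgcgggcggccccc
Grin3a probe: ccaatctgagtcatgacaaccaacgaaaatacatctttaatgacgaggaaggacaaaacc

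Positions are those the array files state for the rat build rn3. The Grin2a main probe lies on the plus strand at chr10:6004472-6004531 and the second Grin2a probe starts 1318 bases further on at chr10:6005790-6005849. The Grin2b probe lies at chr4:172967545-172967604, the Grin2c probe at chr10:105337753-105337812, the Grin2d probe at chr1:96387613-96387672, the Grin3a probe at chr5:66412308-66412367 and the Grin3b probe at chr7:11244019-11244078, all on the minus strand. The main Grin1 probe lies at chr3:3453883-3453942 on the minus strand. The second Grin1 probe is given as chr3:3471906-3472908, a span of 1003 bases for a probe of 60, as for a probe that crosses an exon junction, and its record is the NMDAR1-4b form. Receptor forms with the suffix b carry the short N-terminal cassette of exon 5, whereas the main probe lies 18023 bases away toward the 3′ end of the gene. Probe GC content ran from 35.0% for the second Grin2a probe to 81.7% for Grin2d. Over the 36 pairs of these probes the longest shared run was 8 bases. Exon and UTR annotation in this build was not used here.

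A signal is given in array medians, that is, the background-corrected intensity divided by the median of all non-control probes on the same array. Because each probe binds with its own strength, levels are compared between rats for 1 probe and never between probes. The arrays' median intensity before this scaling ranged from 42.7 to 78.3 in the heroin group and from 58.0 to 83.2 in the saline group, and heroin 6 was the lowest. Of the 9 probes 8 were detected on all 11 arrays and were tested among 25555 probes. Scaled in this way the median tested probe had a log2 difference (heroin minus saline) of 0.18, against 0.01 after quantile normalization, so the changes of the subunits are given on both scales. Same-numbered heroin and saline arrays (2 to 6) were scanned together, but the position recorded for the array is 4 for every heroin and 3 for every saline array, so position and group cannot be told apart.

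No NMDA receptor subunit probe differed between the groups by the thresholds of the study's methods, an unadjusted p under 0.02 with a change of at least 1.4-fold (0 of 8, against 2.72% of all tested probes, and after quantile normalization 0 of 8 against 1.79%). None reached a Benjamini-Hochberg adjusted limma p under 0.05 either (0 of 8, against 0.0% of all tested probes). Only Grin2b had an unadjusted p under 0.05, 1 of 8 against 18.5% of all tested probes, and after quantile normalization 0 of 8 did, against 7.71%. The change was above 0 in 5 of 8, against 78.7% of all tested probes, or in 4 of 8 after quantile normalization, against 53.2%. The 8 changes ran from -0.15 to 0.38 with a median of 0.17, next to 0.18 for all tested probes. After quantile normalization they ran from -0.39 to 0.29 with a median of -0.01, next to 0.01. In none of the 9 probes did the heroin and saline rats separate without overlap, which was seen with heroin higher in 1.67% and with heroin lower in 0.129% of all tested probes. Per subunit, the rats differed most from each other in Grin2a and Grin2d, as the plot of every rat's signal shows.

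**Figure D1:**
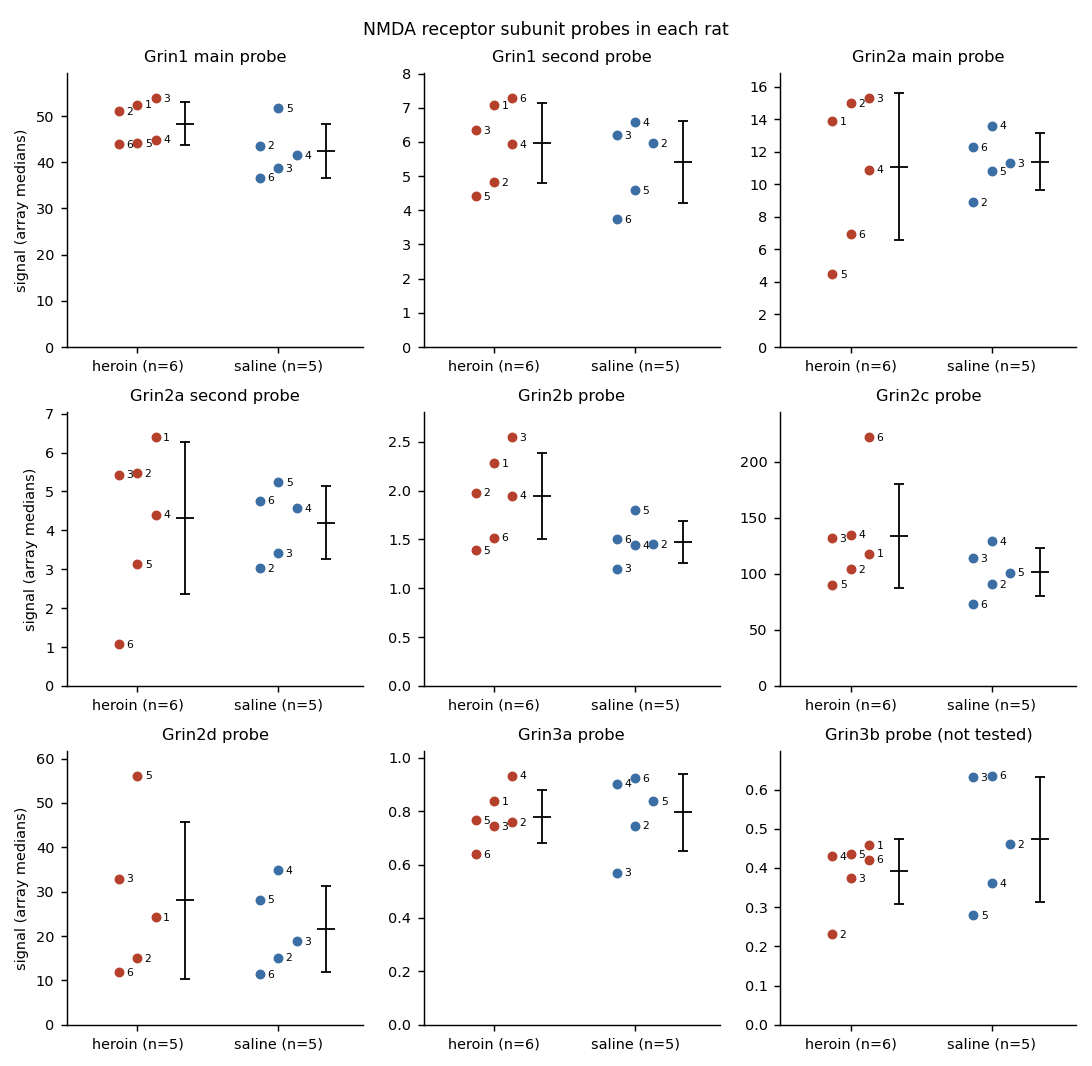
Signal in array medians (vertical axes, linear, each from 0) of the 9 NMDA receptor subunit probes in each heroin rat (red) and saline rat (blue), with the rat's number beside its point and the mean ± SD as a bar. The groups overlap in every panel, heroin 5 and heroin 6 are the lowest 2 heroin rats for both Grin2a probes, and heroin 6 alone stands at 222 for Grin2c; Grin2d has no usable spot on heroin 4.

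Grin1 encodes the subunit that every NMDA receptor needs. The main Grin1 probe read 43.6, 38.7, 41.5, 51.7 and 36.7 in saline 2 to 6, and in the heroin rats it had a lowest value of 43.9, a median of 48.0 and a highest of 53.9. All heroin rats were above 4 of the saline rats, but saline 5 lay among the upper heroin rats. This order was lost after quantile normalization, where heroin 6 and heroin 4 (log2 signals of 11.3 and 11.39) lay below every saline rat. Saline 2 (11.79) was then the highest of all rats. The change was 0.19 ± 0.13 (SE; limma p = 0.144, Benjamini-Hochberg adjusted p = 0.353; exact permutation test, two-sided, p = 0.0823), which equals the median probe to within 0.01. After quantile normalization it was -0.06 ± 0.10. The 95% interval, -0.07 to 0.46, stops short of 0.49, the log2 value of a 1.4-fold change, and so does the interval of -0.28 to 0.17 after quantile normalization. This was the most exactly measured subunit, since the SD over the 10 spots of an array was 0.022 to 0.0448 on the log2 scale, next to SDs of 0.14 between heroin rats and 0.19 between saline rats. In the 5 shared scans the heroin rat was higher in 4, from -0.23 to 0.48, but in 1 after quantile normalization.

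The second Grin1 probe, whose record is a form with the exon 5 cassette, read 5.96, 6.20, 6.57, 4.58 and 3.74 in saline 2 to 6. In the heroin rats it ran from 4.42 through a median of 6.13 to 7.28. Both groups covered nearly the same range, and the change was 0.15 ± 0.18 (SE; limma adjusted p = 0.589), or -0.07 after quantile normalization. Relative to the main Grin1 probe on the same array the change was -0.04 (exact permutation test, two-sided, p = 0.846), with SDs of 0.30 and 0.39 in the heroin and saline rats. A shift of this probe against the rest of Grin1 was not detectable at this spread between rats.

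Grin2a encodes the GluN2A subunit, which gives fast-decaying currents at mature synapses. In saline 2 to 6 its main probe read 8.90, 11.3, 13.6, 10.8 and 12.3. In the heroin group it read 13.9, 15.0, 15.3 and 10.9 in rats 1 to 4, but 4.47 in heroin 5 and 6.94 in heroin 6. Heroin 1 to 3 were thus above all saline rats and heroin 5 and 6 were below all of them. After quantile normalization heroin 5 and 6 (log2 signals of 8.25 and 8.74) were still below all saline rats, of which the lowest had 9.33. Heroin 1 to 3 (9.69, 9.86 and 9.78), however, then lay below saline 6 (9.93). The SD between rats was 0.72 on the log2 scale in the heroin group and 0.23 in the saline group.

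The second Grin2a probe, measured by 10 separate spots per array, had a similar arrangement. It read 3.03, 3.41, 4.57, 5.23 and 4.76 in saline 2 to 6. In heroin 1 to 4 it read 6.40, 5.47, 5.43 and 4.40, in heroin 5 it read 3.13 and in heroin 6 it read 1.07. Again heroin 1 to 3 exceeded all saline rats, heroin 6 fell below all of them, and heroin 5 was at the low end of the saline range. After quantile normalization only heroin 1 (log2 signal of 8.57) exceeded all saline rats, of which saline 6 was the highest (8.54). Heroin 5 (7.73) and heroin 6 (6.14) then lay below all saline rats, of which saline 2 was the lowest (7.92). The SDs were 0.95 and 0.34 in the heroin and saline rats, while the spots of 1 array had an SD of at most 0.231. Relative to the saline mean, the log2 signal of heroin 5 was -1.33 at the main and -0.39 at the second probe, and that of heroin 6 was -0.70 and -1.94, so the pair of probes did not give those rats the same depth of reduction. Neither probe's wider spread in the heroin group was tested.

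The mean change of Grin2a, -0.15 ± 0.28 at the main probe (SE; limma adjusted p = 0.73) and -0.13 ± 0.37 at the second (adjusted p = 0.824), lay between the values of heroin 1 to 3 and those of heroin 5 and 6. After quantile normalization the values were -0.39 and -0.33, with 95% intervals of -0.97 to 0.19 and -1.1 to 0.44, so that a fall of more than 1.4-fold remains within both. Without heroin 5 the main probe gave 0.08, and without heroin 6 the second probe gave 0.23, so the sign of the mean rests on these rats. The estimated quality weight of the array was lowest in heroin 6, at 0.26. It was 0.601 in heroin 5 and 0.342 in saline 5, against 1.17 to 3.45 in heroin 1 to 4. In heroin 6 the second probe was 3.46 times the lowest signal scored well above background on its array. The part of array quality in the low Grin2a values was not tested. In the same scan, heroin 2 and 3 exceeded the saline rats of the same number by 0.75 and 0.43 at the main probe, whereas heroin 4, 5 and 6 differed from theirs by -0.32, -1.27 and -0.82. Marker genes were also low in 1 of these rats or the other. Over 9 probes of pan-neuronal marker genes, the mean quantile-normalized log2 signal relative to all arrays was lowest in heroin 5, at -0.49, and was -0.14 in heroin 6, next to -0.17 in saline 2. Over 5 probes of glutamatergic neuron markers it was lowest in heroin 6, at -0.28, but -0.01 in heroin 5. It was -0.17 in saline 4 and -0.15 in heroin 4. The quantile-normalized Grin2a signal of saline 4, relative to the saline mean, was 0.15 at the main and 0.04 at the second probe. That of heroin 4 was -0.33 and -0.16. Lists other than neuronal ones were also low in heroin 5. It was the lowest array for microglia (-0.35), endothelial (-0.16) and blood markers (-0.97), and had -0.21 for astrocyte markers. Its values were 0.22 for oligodendrocyte, 0.11 for striatal and 0.01 for interneuron markers. The part of any of these lists in the low Grin2a values was not tested, and in RNA of whole tissue fewer cells of a type and less RNA per cell cannot be told apart.

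**Figure D2:**
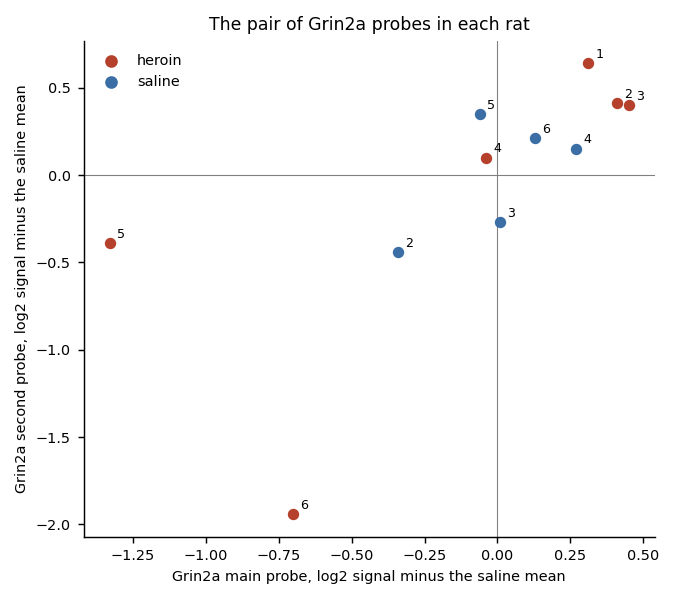
Log2 of the signal in array medians, without quantile normalization, of the main (horizontal axis) and the second Grin2a probe (vertical axis) in each rat. Each value is minus the mean of the saline rats, with heroin rats in red, saline rats in blue and the rat's number beside its point. Heroin 1 to 3 lie at the upper right, while heroin 5 (-1.33 and -0.39) and heroin 6 (-0.70 and -1.94) lie at the lower left.

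Grin2b encodes GluN2B, the slower subunit that binds CaMKII at its long intracellular tail. Its probe read 1.45, 1.20, 1.44, 1.80 and 1.50 in saline 2 to 6. In heroin 1 to 6 it read 2.28, 1.98, 2.55, 1.95, 1.39 and 1.52. Heroin 1 to 4 were above every saline rat and heroin 5 and 6 were inside the saline range. The change, 0.38 ± 0.17 (SE; 95% interval 0.02 to 0.73), was the largest of the 8, with an unadjusted limma p of 0.0397, a Benjamini-Hochberg adjusted p of 0.264 and an exact permutation p of 0.0606 (two-sided). It ranked 3845 of 25555 probes by p. After quantile normalization the change was 0.29 ± 0.14 (limma p = 0.0676, adjusted p = 0.666, exact permutation p = 0.0844), that is, 0.27 above the median probe. Leaving out each rat in turn gave 0.29 to 0.47. With 75th percentile scaling the change was 0.16 ± 0.14 (limma adjusted p = 0.807), where the median tested probe had -0.0343. With normexp background correction it was 0.23 ± 0.12 (limma adjusted p = 0.35), where the median tested probe had 0.123. When arrays were weighted by their estimated quality, Grin2b (0.60, limma adjusted p = 0.0202) and the main Grin1 probe (0.32, adjusted p = 0.0328) were called, but so were 30.8% of all tested probes, and with quantile normalization added these changes were 0.42 (adjusted p = 0.25) and 0.02 (adjusted p = 0.958). Within the 5 shared scans the heroin rat was higher in 4, with differences from -0.37 in the scan of the rats numbered 5 to 1.08 in that of the rats numbered 3, and after quantile normalization it was higher in 3.

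The other GluN2 subunits had higher heroin means and more spread. Grin2c encodes GluN2C, which in the forebrain is known mostly from astrocytes and some interneurons. Its probe read 90.7, 114, 129, 101 and 72.7 in saline 2 to 6, and 90.3 at the lowest, 125 at the median and 222 at the highest in the heroin rats. The highest was heroin 6, whose array had the lowest quality weight (0.26), and the other heroin rats lay at 135 or below. The change was 0.36 ± 0.21 (SE; limma adjusted p = 0.318), 0.20 without heroin 6, and 0.13 after quantile normalization. In the 5 shared scans the heroin rat differed by -0.16 to 0.21 in 4 and by 1.61 in the pair of heroin 6. Over 9 astrocyte marker probes heroin 6 had a mean of -0.09 relative to all arrays and over 6 endothelial marker probes the highest value of the 11, 0.29, and their part in its Grin2c value was not tested.

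Grin2d encodes GluN2D, a subunit of slow kinetics known in the cortex from interneurons. It has a single spot per array, and that of heroin 4 was marked as faulty by the extraction software and dropped, so 5 heroin rats remain. The probe read 15.1, 18.8, 34.9, 28.2 and 11.4 in saline 2 to 6, and 24.3, 15.0, 32.9, 56.1 and 11.9 in heroin 1, 2, 3, 5 and 6. It varied 3.06-fold among the saline rats alone and 4.71-fold among the heroin rats. The change of 0.27 ± 0.39 (SE; limma adjusted p = 0.668) had a 95% interval of -0.58 to 1.11, which holds a 1.4-fold change in either direction, and turned to -0.04 without heroin 5. After quantile normalization it was 0.04, with an interval of -0.83 to 0.91.

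The GluN3 subunits were close to the limit of the arrays. The Grin3a probe, whose record is the splice variant NR3A-2, read 0.745, 0.570, 0.902, 0.837 and 0.924 in saline 2 to 6, and in the heroin rats 0.639 at the lowest, 0.763 at the median and 0.932 at the highest. On average it was 3.08 times the lowest signal scored well above background on its array. The change was -0.02 ± 0.15 (SE; limma adjusted p = 0.947), with a 95% interval of -0.33 to 0.30 that lies within a 1.4-fold change in both directions, and after quantile normalization it was 0.04, with an interval of -0.28 to 0.36. The Grin3b probe was well above background in 4 of 6 heroin and 3 of 5 saline rats and was not tested. Its values ran from 0.231 to 0.458 in the heroin and from 0.280 to 0.635 in the saline rats.

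**Figure D3:**
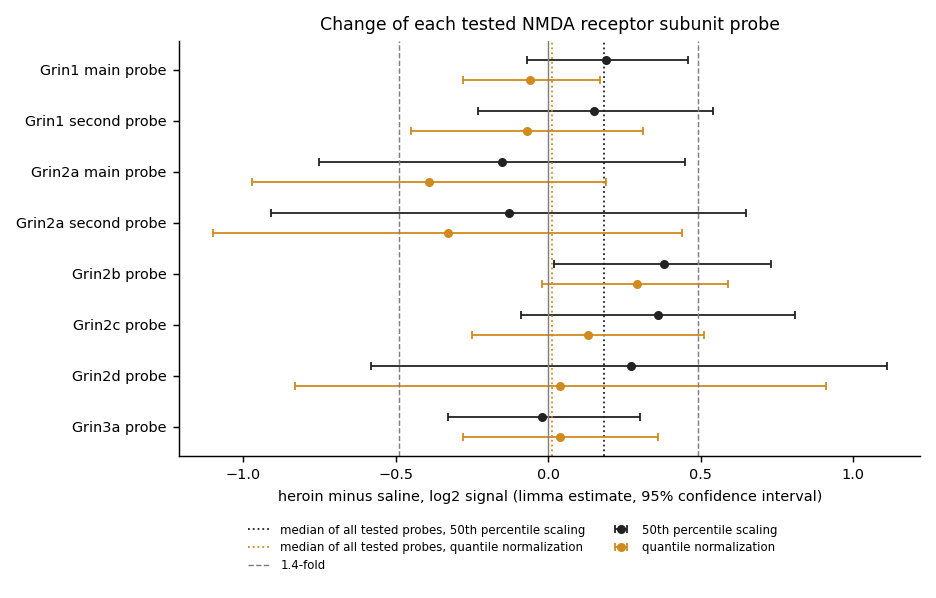
Heroin minus saline difference in log2 signal (horizontal axis) of the 8 tested NMDA receptor subunit probes, as limma estimates with 95% confidence intervals, after 50th percentile scaling (black) and quantile normalization (orange), where dotted lines are the medians of all tested probes and dashed lines mark a 1.4-fold change. Only the interval of Grin2b under 50th percentile scaling (0.02 to 0.73) leaves out 0, the intervals of the main Grin1 probe and of Grin3a stay inside the dashed lines on both scales, and those of Grin2a and Grin2d are the widest.

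The balance of subunits was compared as the ratio of a pair of probes on the same array, which the 50th percentile scaling does not touch. Only the change of a ratio between rats has a meaning here, not its level. Relative to the saline mean, the Grin2b over Grin2a ratio on the log2 scale was 0.33, -0.29, -0.30, 0.36 and -0.09 in saline 2 to 6, and 0.33, 0.03, 0.36, 0.46, 1.26 and 0.75 in heroin 1 to 6. Heroin 4, 5 and 6 were above every saline rat, heroin 3 and saline 5 were equal to the second decimal, and heroin 1 and 2 were within the saline range. The ratio was higher in the heroin group by 0.53 (exact permutation test, two-sided, p = 0.0368), with SDs of 0.43 and 0.32, but it did not pass Benjamini-Hochberg adjustment over the 3 ratios (adjusted p = 0.11). Its Grin2a side is the main probe, which has 1 spot per array, so the spot error of the ratio is not known. Within scans the heroin rat was higher in 4 of 5 pairs by a mean of 0.57 (exact permutation test over pairs, p = 0.125, where 5 pairs can give no less than 0.0625).

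In heroin 5 and 6, the rats with the highest ratio, Grin2b lay inside the saline range while the main Grin2a probe was below it. In heroin 1 to 3 both subunits, scaled to the 50th percentile, were above every saline rat, and in heroin 4 only Grin2b was. After quantile normalization Grin2b was still above every saline rat in heroin 1 to 4, but the main Grin2a probe was not in heroin 1 to 3. With the second Grin2a probe in place of the main one, a comparison added after the data were seen, only heroin 6 (1.99) exceeded every saline rat, and heroin 4 and 5 (0.32 each) lay below saline 2 (0.42). The difference was then 0.51 (exact permutation p = 0.108, adjusted over the 3 ratios 0.214), and 0.21 without heroin 6, so the higher ratio in heroin 4 and 5 depends on the choice of Grin2a probe. With the main probe, leaving out each rat in turn gave a difference of 0.39 to 0.63, the smallest without heroin 5 and the largest without heroin 2 (adjusted p = 0.0476 by the exact permutation test). Grin2a over Grin1 differed by -0.35 between the heroin and saline rats (exact permutation p = 0.31, adjusted over the 3 ratios 0.31). Its heroin values ran from -1.40 in heroin 5 to 0.13 in heroin 2. Grin2b over Grin1 differed by 0.18 (exact permutation p = 0.143, adjusted 0.214), with SDs of 0.22 and 0.15, and 3 of 6 heroin rats exceeded all saline rats.

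**Figure D4:**
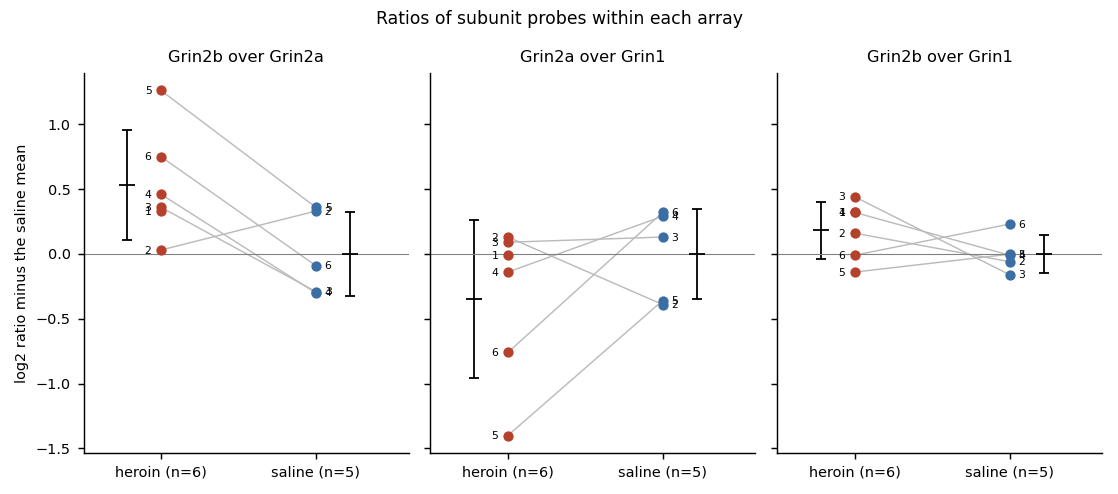
Log2 ratio of a pair of main subunit probes within an array, minus the mean of the saline rats (vertical axis), in heroin rats (red, n = 6) and saline rats (blue, n = 5), with the rat's number beside its point, the mean ± SD as a bar and grey lines between arrays scanned together. Grin2b over Grin2a was higher in the heroin rats by 0.53 on average, with heroin 5 and 6 at 1.26 and 0.75, and in those rats Grin2a over Grin1 was -1.40 and -0.76.

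For the proteins that work with the receptor, the counts past both thresholds stand beside the same 2.72% of all tested probes, which is less than 1 probe of any of these lists. Of 21 tested probes for anchoring and trafficking proteins, such as the PSD-95 family scaffolds, 0 passed both thresholds and the median change was 0.20, next to 0.18 for all tested probes. The smallest p was that of Gipc1, a PDZ adaptor, with 0.29 ± 0.12 (limma p = 0.0283, adjusted p = 0.263, exact permutation p = 0.0152) and 0.07 after quantile normalization. Dlg4, which encodes PSD-95 and binds the GluN2 tails, gave 0.21 and 0.25 at its pair of probes, or 0.03 at each after quantile normalization.

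Of 28 probes for kinases and phosphatases that act on the receptor, 0 passed both thresholds, although 10 had an unadjusted limma p under 0.05, all with heroin higher, against 15.7% of all tested probes in that direction. Their median change was 0.27 before and 0.05 after quantile normalization, and then 0 of 28 had a p under 0.05, against 7.71%. These 10 probes were a pair each for Fyn and Ppp2ca and 1 each for Src, Prkcb1, Ppp3ca, Ppp3r1, Ppp1ca and Dapk1. Fyn, a tyrosine kinase that phosphorylates GluN2B, had the smallest p. Its probe read 2.93 to 3.55 in the saline rats and 3.51 to 5.01 in the heroin rats, of which 5 of 6 were above all saline rats, and the change was 0.41 ± 0.13 (limma p = 0.0056, adjusted p = 0.263, exact permutation p = 0.00866), or 0.21 after quantile normalization.

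For the co-agonists, 0 of 8 probes passed both thresholds (against 2.72% of all tested probes), and Srr, the serine racemase that makes D-serine, had 0.27 ± 0.13 (limma p = 0.0609, adjusted p = 0.274, exact permutation p = 0.0433), or 0.07 after quantile normalization. For calcium signalling below the receptor, 0 of 18 did, and the smallest p was that of Camkk1, a kinase that activates other calmodulin-dependent kinases. Its probe read 42.5 to 59.8 in the 5 saline rats and 63.7 to 79.9 in the 5 heroin rats with a usable spot, so these groups did not overlap, as in 1.67% of all tested probes. The change was 0.47 ± 0.14 (limma p = 0.0048, adjusted p = 0.263, exact permutation p = 0.00794, the smallest that 10 rats can give), or 0.19 after quantile normalization.

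The other ionotropic glutamate receptors were set beside the NMDA receptor subunits. Of 6 AMPA receptor probes 2 passed both thresholds with heroin higher, against 1.79% of all tested probes, both for Gria2, the subunit that keeps AMPA receptors calcium-impermeable. Its first probe read 15.0 to 25.4 in the saline rats and 25.1 to 30.7 in the heroin rats, with 5 of 6 heroin rats above all saline rats. The change was 0.57 ± 0.14 (limma p = 0.000993, Benjamini-Hochberg adjusted p = 0.263, exact permutation p = 0.00433) and 0.50 at the other Gria2 probe, but after quantile normalization these were 0.32 and 0.26 and neither passed both thresholds. Gria2 was among the genes the study chose for RT-qPCR in RNA of the same samples, so its count is not independent evidence, and the RT-qPCR values were not analysed here. Of 5 kainate receptor probes 0 passed, which the share of 2.72% over all tested probes makes no finding, with the smallest p for Grik5 at 0.27 ± 0.14 (limma p = 0.0856, adjusted p = 0.299, exact permutation p = 0.0758) and 0.02 after quantile normalization. Whether the AMPA and NMDA receptor probes changed by different amounts was not tested.

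The probes with the profile most like that of a subunit over the rats were found among 7624 other tested probes with a gene symbol, by the root mean square difference of mean-centred quantile-normalized log2 signals. For Grin1 they were Psmc3, a proteasome ATPase, and Peflin, with differences of 0.052 and 0.0597 where Grin1 itself had an SD of 0.129 over the 11 arrays. For Grin2a, with an SD of 0.50, they were Arfgef2, an exchange factor for ARF GTPases, at 0.179 and Myadm at 0.184. For Grin2b, with an SD of 0.26, they were Dlc1 at 0.105 and Ppp1r3c, a glycogen-targeting phosphatase subunit, at 0.114. No subunit was among its neighbours by construction, as the member genes were left out.

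The profiles of the other GluN2 subunits had neighbours of a similar closeness. Grin2c (SD 0.291) was most like Itga7, a laminin-binding integrin, at 0.0786 and Vamp3, a vesicle SNARE, at 0.0788. Grin2d (SD 0.672 over 10 arrays) was most like the secreted ligands Wnt11 at 0.24 and Inhbb at 0.275. For Grin3a (SD 0.231) the nearest, Sub1 at 0.136 and Psip1 at 0.143, were not close in relation to its own spread. These are descriptions of the nearest of many probes over few rats, without a test.

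Neuronal markers were found in the tissue, but their detection does not identify it as cortex. Of the genes listed, 6 of 7 pan-neuronal and 4 of 7 glutamatergic ones were on the array. The 9 pan-neuronal and 5 glutamatergic marker probes found were detected on all 11 arrays, and the signals of the pan-neuronal list summed to 633 to 911 in the heroin and 543 to 872 in the saline rats. No marker list had a probe with an unadjusted limma p under 0.05 and heroin lower. Such probes were few among all tested probes, of which 18.5% had such a p in either direction and 15.7% with heroin higher. Their absence from these short lists is therefore no finding. With heroin higher, 2 of 10 interneuron and 1 of 7 striatal marker probes had one, against the same 15.7%. Oligodendrocyte markers varied most in level among the brain cell lists, from -0.78 in heroin 4 to 1.01 in saline 3 relative to all arrays. The striatal list was highest in saline 5, at 0.63. Of its 8 probes 7 were detected on all 11 arrays, and Drd2 was the gene not detected on all.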

How the data were processed

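Each rat's Cy3-labelled cRNA was hybridised to its own Agilent array. The deposited spot intensity is the signal after background and spatial correction by the Feature Extraction software (9.5.1.1 per the file headers), without scaling between arrays, and 0 or 1 flags mark detection and faulty spots. A second deposited table holds a ratio per probe and rat, which the authors obtained with a floor of 5, scaling to the 50th percentile of the array and then to the median of the gene.

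Here the floor and the percentile were applied to the intensities again, over non-control probes and after removal of spots flagged as non-uniform or as outliers, and log2 values were averaged over the spots of a probe. Detection on an array required that the flag was set for a share of 0.5 or more of a probe's spots. The 25555 probes detected on all 11 arrays, and usable on 2 or more arrays of each group, were compared by limma 3.58.1 under R 4.3.3 (lmFit, eBayes, two-sided), and p was adjusted over all of them by Benjamini-Hochberg. Values of the ratio table, once centred per probe, matched within 0.02 in 99.96% of cases. Single probes and ratios were tested by exact permutation over the 462 ways of dividing 11 rats into 6 and 5, which can give no p below 0.00216, or over the 252 ways for 5 and 5 where the spot of a heroin rat was dropped (Grin2d, Camkk1). The p-values over rats measure the spread between rats, 1 array each, and the number of arrays limits the precision. The limma step was tested on simulated data.

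Where a gene had several probes, the brightest was its main probe, and all were reported. From each gene list the probe past both thresholds with the smallest p in each direction was named, or else the probe with the smallest p. For each subunit the 2 most similar profiles were named. Names that the array gives with an ending for predicted genes were matched without it. The subunits, gene lists and alternatives were chosen with earlier results of these data known. Alternatives were other scalings (75th percentile, quantile), normexp background correction (offset 50), scaling before the floor, the ratio table, marked spots kept, other detection filters, the methods' t-test, trend and robust eBayes, array weights, a replicate block, averaging a gene's probes and leaving out each rat. The methods give more arrays than the 11 here, and a saline 1 was not analysed here. The sequences of 4 of the 9 probes are shown, and the others, both Grin2a probes among them, are not reported here.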

Additional observations from a re-analysis of the deposited data

Results flagged for a closer look

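Grin3b in heroin 2 read 0.231 array medians, the lowest of the heroin rats, and on the log2 scale its gap to the next rat was 0.704 of the range of the group, above the critical value of 0.625 for 6 samples (Dixon's test). The Grin3b probe was not well above background on all arrays. Over the 24 groups of values looked at in this way (each subunit probe and ratio in each group), chance alone singles out about 1 in 20. The low Grin2a values of heroin 5 and 6 did not exceed this limit. The test takes the gap from the lowest to the next rat, so 2 low rats mask each other and it cannot judge them as a pair. On the linear scale the gap of Grin3b in heroin 2 was 0.63. The high Grin2c value of heroin 6 then also exceeded the limit, at 0.658, whereas on the log2 scale it had 0.551.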

How the results depend on the processing

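None of the 8 tested NMDA receptor subunit probes passed both thresholds under any alternative apart from array weights, which called 1 (Grin2b) and put 2 (Grin2b and the main Grin1 probe) at an adjusted limma p under 0.05. Leaving out each rat in turn gave 0 to 0 for both counts. Among the 86 probes of the 6 gene lists, 2 passed both thresholds, and the count was 0 with 75th percentile scaling, with quantile normalization and with quantile normalization joined to a replicate block or to array weights, 1 with normexp and with the methods' t-test, and 9 with array weights. Leaving out a rat gave 0 to 4, with 0 without saline 2, 1 without heroin 3 or heroin 5 and 4 without heroin 6 or saline 5. Over all 25555 tested probes, 694 passed both thresholds. That number was 342 without saline 2, 2352 without saline 5 and 2378 with array weights. It was 779 with 75th percentile scaling and 942 without heroin 5, where the lists had fewer. Whether the lists moved more than all tested probes was not tested.

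Signs turned as follows. The Grin1 probes, main and second, gave -0.02 and -0.07 with 75th percentile scaling, -0.06 and -0.07 with quantile normalization, and -0.07 and -0.12 with quantile normalization and a replicate block. The second Grin1 probe gave -0.05 with array weights and quantile normalization. Grin3a gave 0.04 with quantile normalization, 0.0014 with normexp, 0.14 with array weights, 0.02 with replicate block and quantile normalization, 0.10 with array weights and quantile normalization, and 0.04, 0.03, 0.01 and 0.04 without heroin 6, saline 4, saline 5 and saline 6. Grin2a gave 0.11 (main) and 0.39 (second) with array weights, 0.05 (second) with array weights and quantile normalization, 0.08 (main) without heroin 5 and 0.23 (second) without heroin 6. Grin2d gave -0.04 without heroin 5. Without 1 rat the values ran from -0.13 to 0.04 for Grin3a, from -0.04 to 0.52 for Grin2d, and from -0.27 to 0.08 and -0.29 to 0.23 for the main and second Grin2a probes. Grin2b and Grin2c kept their direction under every alternative run, but not their size. Grin2b fell to 0.16 with 75th percentile scaling, and Grin2c to 0.01 with array weights and quantile normalization. The cause of these turns was not tested.

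The Grin2b over Grin2a difference ranged from 0.39 to 0.63 without 1 rat, Grin2a over Grin1 from -0.45 to -0.14 and Grin2b over Grin1 from 0.13 to 0.25. For Grin2b over Grin2a it was 0.40 with normexp (exact permutation test, adjusted p = 0.338). Within the pairs of the replicate block it was 0.57 (exact permutation test over pairs, adjusted p = 0.375). With the replicate block, which is also the shared scan, Grin2b changed by 0.33 (limma adjusted p = 0.465). Whether a number marks a yoked pair is not given in the sources used here. Correlations of same-numbered rats' deviations ran from -0.237 to 0.384, and 1 of 5 rats was most like its own number. The joint alternatives with quantile normalization and the second Grin2a probe in the ratios (0.51 for Grin2b over Grin2a and -0.33 for Grin2a over Grin1) were added after the data were seen.

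The spread of Grin2a and Grin2d among rats and the dim Grin3 probes limit what 6 against 5 rats can show, and single-spot probes (the second Grin1, main Grin2a, Grin2d, Grin3a and Grin3b) carry no spot error.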
